A study of Mus musculus with 6 samples.

Results

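The PAQR family (progestin and adipoQ receptors) was described in RNA-seq libraries labelled as marrow flushed from mouse femurs. The members were the 9 gene symbols Adipor1, Adipor2 and Paqr3 to Paqr9, each matched to 1 row of a table of 55291 genes. All 9 were found. The libraries came from 3 P2rx7 knockout mice (A, B and C) and 3 wild-type mice (WT 1, 2 and 3), all aged 6 to 8 weeks, with 1 library each. The product of P2rx7 is a cation channel opened by ATP, and the study asks what its loss does to bone. The labels do not say which part of P2rx7 the knockout allele lacks, on which strain it is kept or whether any promoter restricts the loss to some cells. They also do not say whether the mice were littermates. The p-values of edgeR set the difference between genotypes against the spread among libraries of the same genotype, and cover these 6 libraries only. The family was chosen by the count values of Paqr9, which was among the genes called in the comparison of knockouts with wild types. Fold changes of members are therefore a description, and the fit's adjusted p-values are given only to show which members it called.

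PAQR proteins are membrane proteins, and the helices of Adipor1 and Adipor2 lie in the membrane in the orientation opposite to that of G protein-coupled receptors. Adipor1 and Adipor2 are the receptors of adiponectin, a hormone secreted by adipocytes, those of the marrow included, and they act through the adaptor Appl1, the kinase AMPK, the nuclear receptor Ppara and a ceramidase activity. Paqr5 to Paqr9 are the membrane progestin receptors, which respond to progesterone at the cell surface, apart from the nuclear receptor Pgr. Paqr3 and Paqr4 are Golgi proteins, and Paqr3 holds Raf kinases at the Golgi and so restrains ERK signalling.

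Promoter windows are shown for the pair of members with the highest levels and the pair with the lowest, because level is what separated the family most. Each runs from 250 bases before to 50 bases after a RefSeq transcript start (GRCm38.p6), 5′ to 3′ on the gene's strand, and capitals mark GC boxes (GGGCGG) and CCAAT boxes on either strand.
Adipor1, chr1:134415128-134415427, plus strand: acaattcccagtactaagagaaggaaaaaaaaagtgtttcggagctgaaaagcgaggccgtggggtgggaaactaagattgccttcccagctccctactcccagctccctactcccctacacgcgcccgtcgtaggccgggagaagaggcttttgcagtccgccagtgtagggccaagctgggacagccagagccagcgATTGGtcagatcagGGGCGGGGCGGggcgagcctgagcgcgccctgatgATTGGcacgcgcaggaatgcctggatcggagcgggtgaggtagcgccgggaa
Adipor2, chr6:119388685-119388984, minus strand: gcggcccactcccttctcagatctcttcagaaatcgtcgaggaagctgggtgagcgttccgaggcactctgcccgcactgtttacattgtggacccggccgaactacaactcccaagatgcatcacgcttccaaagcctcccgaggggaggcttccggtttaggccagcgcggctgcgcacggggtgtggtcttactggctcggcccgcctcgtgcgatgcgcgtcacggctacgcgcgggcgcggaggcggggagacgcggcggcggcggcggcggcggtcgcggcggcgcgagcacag
Paqr5, chr9:62026741-62027040, minus strand: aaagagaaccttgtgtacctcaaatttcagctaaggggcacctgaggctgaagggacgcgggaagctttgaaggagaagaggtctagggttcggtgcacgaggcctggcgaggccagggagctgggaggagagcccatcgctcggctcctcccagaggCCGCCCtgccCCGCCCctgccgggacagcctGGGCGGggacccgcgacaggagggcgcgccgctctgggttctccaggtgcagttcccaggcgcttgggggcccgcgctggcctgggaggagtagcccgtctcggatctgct
Paqr6, chr3:88364339-88364638, plus strand: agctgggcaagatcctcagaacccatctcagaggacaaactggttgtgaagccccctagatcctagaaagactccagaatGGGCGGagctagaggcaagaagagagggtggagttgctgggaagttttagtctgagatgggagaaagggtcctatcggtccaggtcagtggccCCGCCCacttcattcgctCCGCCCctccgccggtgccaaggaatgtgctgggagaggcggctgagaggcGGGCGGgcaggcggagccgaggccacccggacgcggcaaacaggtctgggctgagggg
The search also covered TATAAA and CACGTG, which were in none of the 8 members' windows that were matched by symbol. Of 32851 promoter windows of 300 bases, 35.7% held GGGCGG, 37.4% CCAAT, 13.6% TATAAA and 7.15% CACGTG on either strand. Windows of 1 gene can overlap each other and are counted singly. The window of Adipor1 held 2 GC boxes, which share a base, and 2 CCAAT boxes, while that of Adipor2 held neither. The Adipor2 window lies well inside the gene span, whose 5′ end on the minus strand is at 119417704. It therefore does not show the sequence at that end of the gene. The windows of Paqr5 and Paqr6 held 3 and 4 GC boxes and no CCAAT box. The count of CG dinucleotides was 21 for Adipor1, 41 for Adipor2, 21 for Paqr5 and 15 for Paqr6, against a median of 7 over all windows. Paqr9 was not among the matched windows.

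Totals were 18716704 to 22382281 counts per library in knockouts and 20037343 to 23575652 in wild types. P2rx7 had counts of 876, 722 and 748 in knockouts A, B and C, against 1207, 1410 and 1453 in WT 1, 2 and 3, so it was lower in knockouts but not absent. Whole-gene counts do not show the loss of single exons. Its edgeR log2 fold change was -0.67 ± 0.05 (SE; adjusted p = 0.0109), and an exact two-sided permutation test reached p = 0.1, the smallest value possible with 3 against 3. Several defining genes of whole marrow were near 0 in both genotypes, which goes against the label, whereas other marrow genes were well counted. The levels below are therefore those of the libraries as labelled, and their cell content is uncertain. The haemoglobin gene Hbb-bs had counts of 0, 0 and 5 in knockouts A, B and C and 0 in each wild type, the B cell gene Cd79a had at most 12 and the neutrophil gene Ly6g at most 12 in any library. By contrast the macrophage gene C1qa averaged 1624 FPKM in knockouts, against 1528 FPKM in wild types, and the collagen gene Col1a1 averaged 1236 FPKM in knockouts, against 1489 FPKM in wild types. The leukocyte gene Ptprc had 3998 to 4965 counts over all libraries. Among other neutrophil markers, Mpo had 384 to 5226 counts and S100a9 had 181 to 1830. Lists of 10 markers were summed for each cell type. The macrophage sum was 9802 to 11070 CPM in knockouts and 9499 to 10110 CPM in wild types, with Cd163 and Vsig4 called lower. The neutrophil sum was 125 to 577 CPM in knockouts and 172 to 483 CPM in wild types, and the erythroid sum 4.05 to 6.57 CPM in knockouts and 2.66 to 4.53 CPM in wild types. The osteoblast sum was 8408 to 8993 CPM in knockouts and 8898 to 10810 CPM in wild types, most of it from Col1a1. Of 6 tested osteoblast markers 4 had a positive log2 fold change, with a median of 0.38, and edgeR called 0 (3 at an unadjusted p below 0.05). The osteoblast enzyme gene Alpl (0.75 ± 0.24 SE) and the transcription factor gene Sp7 (0.55 ± 0.17 SE) were higher in knockouts without overlap, and DESeq2 called Sp7 alone of this list. Col1a1 (-0.26 ± 0.11 SE) was lower in knockouts without overlap. Of all tested genes, 11.5% were higher and 10.4% lower in knockouts without overlap. At an unadjusted p below 0.05 edgeR had 16.6% of them, and DESeq2 called 3.2%. The sum for oligodendrocytes and Schwann cells was 90.6 to 98.7 CPM in knockouts and 89.5 to 101.1 CPM in wild types. The sum for B cells and plasma cells was 156 to 181 CPM in knockouts and 8.67 to 26.4 CPM in wild types, with the antibody genes Igkc, Igha and Jchain called higher. The libraries also split by traces of other tissues. Growth hormone (Gh) had counts of 23, 0 and 0 in knockouts A, B and C and 54, 82 and 75 in WT 1, 2 and 3, whereas albumin (Alb) had 0, 46 and 36 in the knockouts and 0 in each wild type. In this split knockout A was placed with the wild types, as it had Gh and no Alb, though its Gh count was below each of theirs. The split and genotype therefore cannot be told apart in knockouts B and C, nor fully in knockout A.

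The family spanned more than 3 orders of magnitude in level. Levels between genes are compared in FPKM, the deposited counts scaled by the authors for exon length and library size. The size used for each library was not its count total. Over the 6 libraries the order of mean FPKM was Adipor1 (76.9), Adipor2 (26.9), Paqr7 (12.1), Paqr4 (8.16), Paqr8 (2.01), Paqr3 (0.599), Paqr9 (0.0591), Paqr5 (0.0360) and Paqr6 (0.0354). Ranges over the libraries did not overlap between neighbours from Adipor1 down to Paqr9. Paqr5 and Paqr6 did not differ in level beyond their spread in either genotype. The place of Paqr9 by mean FPKM differed between genotypes, and its pooled rank describes neither. In knockouts its mean of 0.00967 FPKM was the lowest of the family, below Paqr5 (0.0292) and Paqr6 (0.0453), although the ranges overlapped. In wild types its mean of 0.108 FPKM was above Paqr5 (0.0429) and Paqr6 (0.0255), and there its range overlapped neither. These places rest on few counts. The knockouts together had 5 counts of Paqr9, 7 of Paqr5 and 7 of Paqr6. In WT 1 the exact 95% Poisson intervals of Paqr9 (6.92 to 22.2 counts) and Paqr5 (1.62 to 11.7 counts) overlapped. Adipor1 and Adipor2 together made 81.9%, 81.9% and 83.2% of the summed FPKM of the family in knockouts A, B and C and 82.1%, 80.4% and 81.5% in WT 1, 2 and 3. In bulk samples, fewer cells of a type and less RNA per cell cannot be told apart, and this applies to every level given here.

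**Figure D1:**
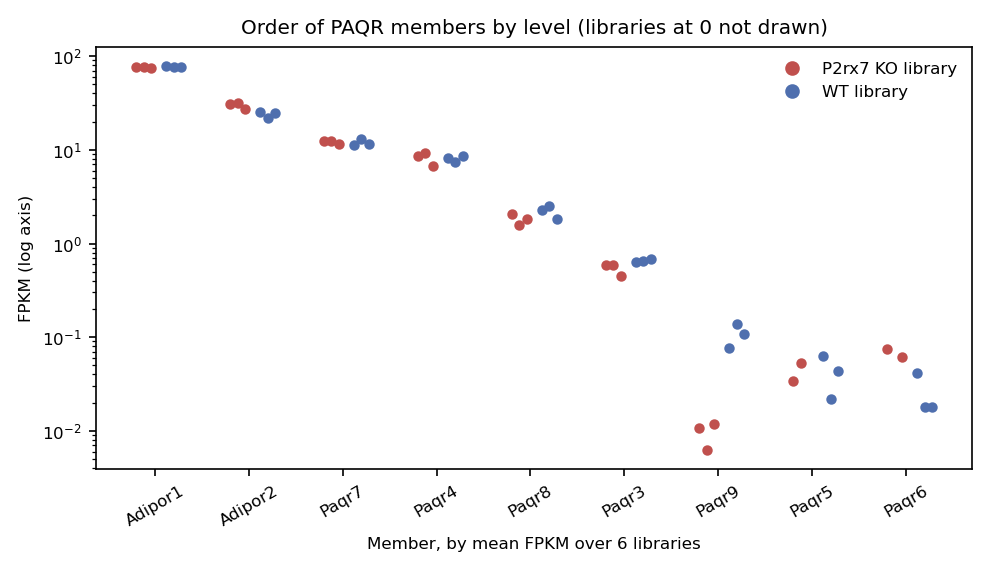
FPKM of each PAQR member in each library on a log axis, members ordered by mean, with knockout libraries in red left of wild-type libraries in blue; the library in which Paqr5 and the library in which Paqr6 had 0 counts are not drawn. Adipor1 lies at 75.5 to 78.3 FPKM in all 6 libraries, and Paqr9 is the member whose knockout and wild-type points lie farthest apart.

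**Figure D2:**
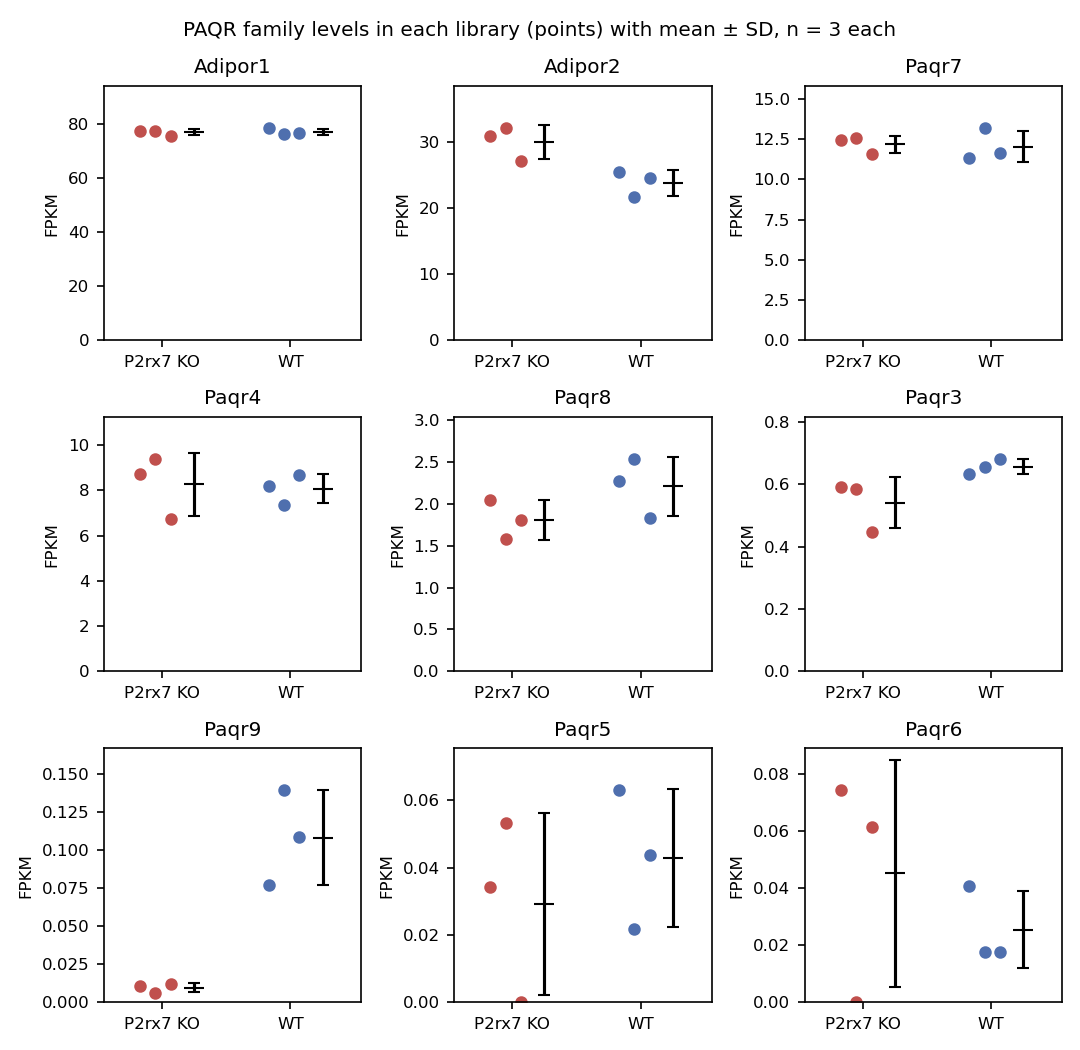
FPKM of each member in each library (points) on an axis of its own from 0, with mean ± SD of 3 libraries beside each group, knockouts left of wild types, members in order of level. Adipor2, Paqr3 and Paqr9 show no overlap between genotypes, whereas the points of the other 6 members overlap.

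Adipor1, the adiponectin receptor linked mainly to AMPK, had the narrowest range of the members relative to its level. It is a plus-strand gene of chromosome 1, from 134415378 to 134433351 (GRCm38), with 5025 exonic bases. It was at 77.4, 77.5 and 75.5 FPKM in knockouts A, B and C and at 78.3, 76.2 and 76.6 FPKM in WT 1, 2 and 3. The groups overlapped. The log2 fold change was 0.00 ± 0.05 (SE), with a 95% interval of -0.10 to 0.11 in edgeR.

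Adipor2, the receptor linked mainly to Ppara, was higher in each knockout than in any wild type. It is a minus-strand gene of chromosome 6, from 119353150 to 119417704. The levels were 30.8, 32.0 and 27.0 FPKM in knockouts A, B and C and 25.4, 21.6 and 24.4 FPKM in WT 1, 2 and 3. Knockout C came closest to the wild types, and the groups did not overlap. Knockouts averaged 29.9 ± 2.61 FPKM and wild types 23.8 ± 1.96 FPKM (SD, n = 3 each), a log2 fold change of 0.34 ± 0.08 (SE; 95% interval 0.14 to 0.53). It did not pass the adjusted threshold in edgeR's quasi-likelihood test (adjusted p = 0.159), but DESeq2 called it (adjusted p = 0.0137), as did edgeR without a filter on low counts (adjusted p = 0.00923). DESeq2 called 3.2% of its tested genes, edgeR without the filter called 3.2% and limma voom called 0.0388%. The ratio of Adipor1 to Adipor2 FPKM was 2.51, 2.42 and 2.80 in knockouts A, B and C and 3.08, 3.52 and 3.13 in WT 1, 2 and 3.

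The summed adipocyte and stromal markers were, like Adipor2, higher in each knockout than in any wild type, though edgeR called none of these genes. The 12 adipocyte markers summed to 1270 to 1626 CPM in knockouts and 449 to 1023 CPM in wild types, with 8 of 10 tested markers higher in each knockout than in any wild type and Cidea and Lep at 0 to 5 counts in each library. The 10 marrow stromal markers summed to 5305 to 6332 CPM in knockouts and 2200 to 4373 CPM in wild types, and 6 of the 10 tested were higher without overlap. At an unadjusted p below 0.05 edgeR had 8 of 10 tested adipocyte and 6 of 10 stromal markers, against 16.6% of all tested genes. DESeq2 called 1 adipocyte (Pparg) and 0 stromal markers, and voom called 0 of both. Without the filter on low counts edgeR called 8 and 5 of these tested markers, against 3.2% of its genes. Cidea and Lep, which did not pass the filter, were not counted there. Of all tested genes, 11.5% were higher in knockouts without overlap. Knockout C had the lowest Adipor2 and the lowest adipocyte sum of the knockouts, and WT 2 had the lowest of both among wild types, while the stromal sum was lowest in knockout A. The part of these cells in the level of Adipor2 was not tested.

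**Figure D3:**
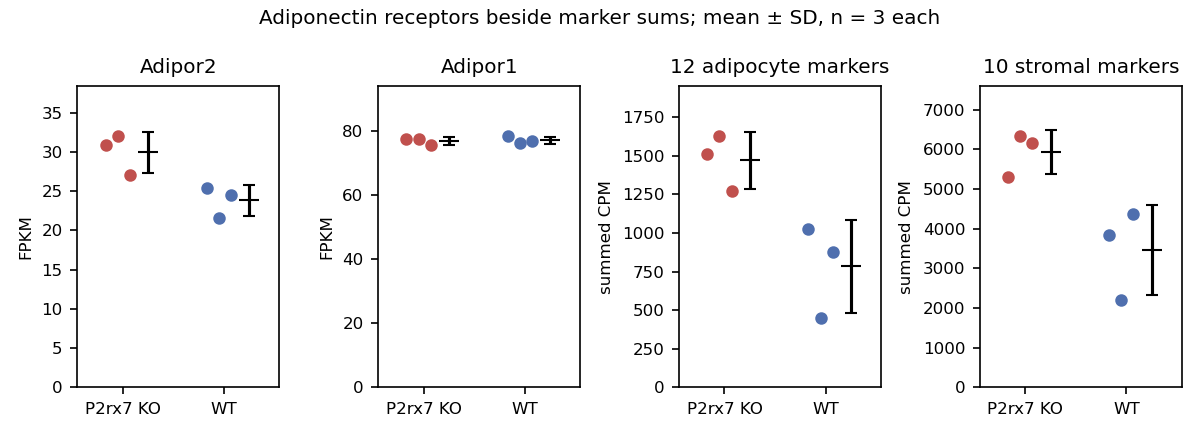
Adipor2 and Adipor1 in FPKM and the summed CPM of adipocyte and marrow stromal markers in each library (points), with mean ± SD of 3 libraries beside each group, knockouts left of wild types. Adipor2 and both marker sums do not overlap between genotypes, whereas the values of Adipor1 do.

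Among the membrane progestin receptors, Paqr7 (mPR alpha) had the highest level and differed little between genotypes. It is a plus-strand gene of chromosome 4, from 134496697 to 134510235. It was at 12.4, 12.5 and 11.6 FPKM in knockouts A, B and C and at 11.3, 13.2 and 11.6 FPKM in WT 1, 2 and 3. The knockouts lay inside the range of the wild types, with a log2 fold change of 0.02 ± 0.07 (SE; 95% interval -0.13 to 0.18).

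Paqr8 (mPR beta), a plus-strand gene of chromosome 1 from 20890606 to 20939650, was at 2.05, 1.57 and 1.81 FPKM in knockouts A, B and C. In WT 1, 2 and 3 it was at 2.27, 2.53 and 1.83 FPKM. The groups overlapped because WT 3 lay below knockout A. The log2 fold change was -0.28 ± 0.14 (SE; 95% interval -0.60 to 0.05; adjusted p = 0.370, edgeR).

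Paqr5 (mPR gamma) and Paqr6 (mPR delta) were at the edge of detection and did not pass the filter on low counts. Paqr5 had counts of 3, 4 and 0 in knockouts A, B and C and 5, 2 and 4 in WT 1, 2 and 3. Paqr6 had 4, 0 and 3 counts in the knockouts and 2, 1 and 1 in the wild types. Where no read was counted the level may reach 3 counts, equal to 0.151 CPM for Paqr5 in knockout C and 0.159 CPM for Paqr6 in knockout B. The ratio of summed counts, knockout over wild type and scaled for depth, was 0.693 for Paqr5 (exact 95% binomial interval 0.228 to 1.96) and 1.91 for Paqr6 (0.485 to 8.88). Paqr5 is a minus-strand gene of chromosome 9, from 61953481 to 62026856. The intervals of both genes cover counting error only, and a difference inside them was not detectable at this depth. Paqr6 is a plus-strand gene of chromosome 3, from 88364584 to 88368541, 74 bases from Bglap3, a gene of the osteocalcin cluster, which itself had at most 3 counts in any library.

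Paqr9 (mPR epsilon) had the largest fold change of the 7 members tested, and its counts were low. It is a plus-strand gene of chromosome 9, from 95559657 to 95568023, with 1 exon of 8367 bases, of which 13.4% is coding. It had counts of 2, 1 and 2 in knockouts A, B and C, against 13, 27 and 21 in WT 1, 2 and 3. Each knockout lay below each wild type, and WT 1 was the lowest wild type. In FPKM this was 0.0108, 0.00629 and 0.0119 in knockouts and 0.0774, 0.139 and 0.109 in wild types. Paqr9 thus lay above Paqr5 and Paqr6 in every wild type, whose ranges were 0.0219 to 0.0630 and 0.0178 to 0.0410 FPKM. The 5 knockout counts against 61 wild-type counts made a depth-scaled ratio of 0.0893 (exact 95% binomial interval 0.0280 to 0.220, counting error only). The edgeR log2 fold change was -3.39 ± 0.43 (SE), at rank 15 by p among the 16 genes the fit called.

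Paqr9 passed the filter only through the wild types. The filter asks for about 0.472 CPM in 3 libraries, and Paqr9 was at 0.0899, 0.0531 and 0.1003 CPM in knockouts A, B and C and at 0.652, 1.16 and 0.906 CPM in WT 1, 2 and 3. Its adjusted p was 0.0490 and was above 0.05 in 5 of the 6 fits that left out 1 library, the exception being the fit without WT 3. Its log2 fold change was -3.57 to -3.17 in those 6 fits. Among the 4 libraries with growth hormone counts, where knockout A alone stands for the knockouts and is assumed to vary like the wild types, it was -3.27 (adjusted p = 0.909).

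The summed neuronal and pituitary markers were, like Paqr9, lower in each knockout than in any wild type. None of these genes was called by edgeR, which had 2 of 3 tested neuronal and 3 of 3 tested pituitary markers at an unadjusted p below 0.05, against 16.6% of all tested genes. With the filter left out it called 2 and 3 of those tested markers, against 3.2% of all genes in that fit. Markers that did not pass the filter were not counted there. DESeq2 called Stmn2 alone in both lists, and voom none. The neuronal gene Stmn2 had counts of 7, 1 and 2 in knockouts A, B and C and 22, 32 and 32 in WT 1, 2 and 3, and Nefm had 3, 1 and 3 counts in the knockouts and 8, 11 and 13 in the wild types. Some other markers of the neuronal list overlapped between genotypes. Gap43 had 25, 9 and 7 counts in the knockouts and 21, 26 and 17 in the wild types, and Elavl3 and Nefl overlapped as well. The 10 neuronal markers summed to 17.6 to 28.9 CPM in knockouts and 31.1 to 39.6 CPM in wild types, most of it from Tubb3. Tubb3 ranged from 329 to 588 counts per knockout and from 555 to 829 per wild type (log2 fold change -0.51 ± 0.17 SE). No other marker of that list went above 32 counts in any library, so the sum mainly follows Tubb3. The 10 pituitary markers summed to 0.452 to 2.79 CPM in knockouts and 6.57 to 7.68 CPM in wild types. Lhb was at 0 in every library, and Snap25 and Elavl4 were at 0 in every knockout. Knockout A had 23 Gh counts, against 0 in knockouts B and C. Its 2 Paqr9 counts, against 1 and 2 in knockouts B and C, are too few to tell whether it differed from them in Paqr9. The 10 liver markers ran the other way in knockouts B and C, with sums of 0.540 to 4.62 CPM in knockouts and 0.604 to 0.952 CPM in wild types. The part of such cells in the counts of Paqr9 was not tested.

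**Figure D4:**
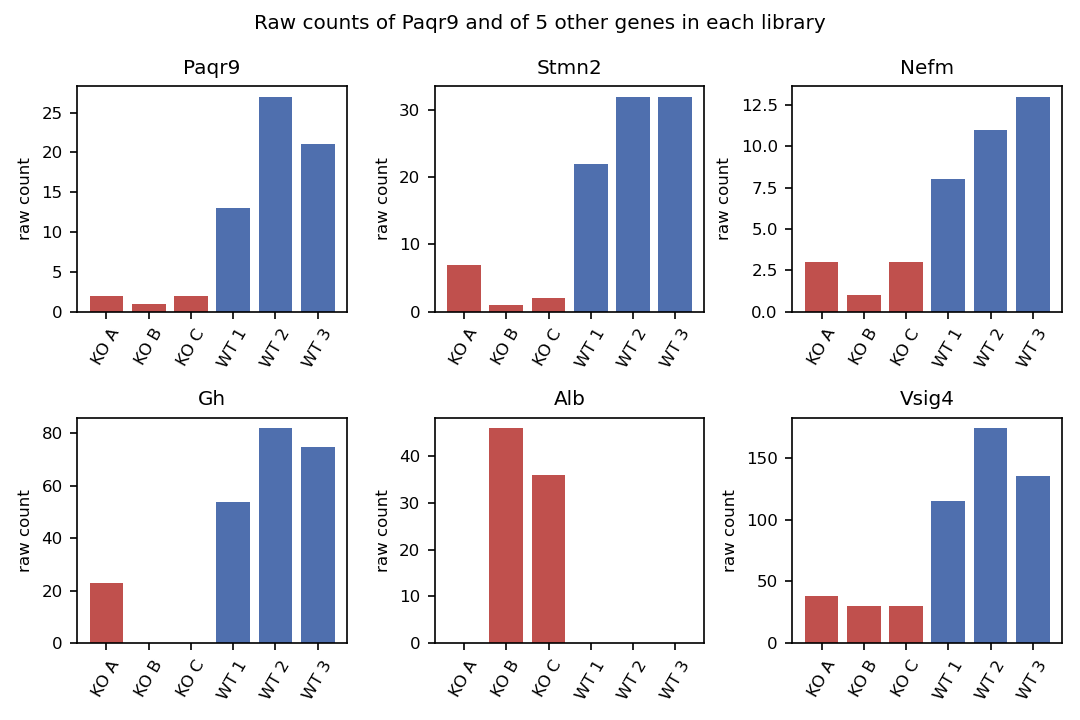
Raw counts of Paqr9, of the neuronal genes Stmn2 and Nefm, of Gh, Alb and the macrophage gene Vsig4 in each library, knockouts in red left of wild types in blue. Paqr9, Stmn2, Nefm, Gh and Vsig4 are lower in each knockout than in any wild type. Among the knockouts Gh is present in knockout A, and Alb is present in knockouts B and C.

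The 5 tested genes whose log2 CPM over the 6 libraries was most like that of Paqr9, by Pearson's r and leaving out predicted genes, were Gclc (0.996), Cgref1 (0.995), Pcdh11x (0.991), Fbxw8 (0.990) and Vsig4 (0.989). The 6 points share their libraries and form 1 cluster per genotype, and 79 tested genes had an r above 0.95, so this is a description only. Vsig4, a complement receptor of tissue macrophages, had 38, 30 and 30 counts in knockouts and 115, 174 and 135 in wild types. Gclc, the catalytic subunit of glutathione synthesis, had 1414, 1181 and 1277 counts in knockouts and 1483, 1896 and 1822 in wild types.

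Of the Golgi members, Paqr4 had the higher level. It is a minus-strand gene of chromosome 17, from 23736186 to 23740867. It was at 8.69, 9.36 and 6.71 FPKM in knockouts A, B and C and at 8.18, 7.37 and 8.65 FPKM in WT 1, 2 and 3. Knockouts A and B lay above all wild types and knockout C below them, so the groups overlapped (log2 fold change 0.04 ± 0.12 SE; 95% interval -0.25 to 0.33). Of its exonic bases 319 (12.1%) are shared with Pkmyt1 on the other strand. Pkmyt1 had 291 to 384 counts per library, against 356 to 529 for Paqr4. As the sources used here do not give the use of strand in counting, the value of Paqr4 is uncertain.

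Paqr3, the regulator of Raf, was lower in each knockout than in any wild type. It is a minus-strand gene of chromosome 5, from 97082329 to 97111596, 25.5 Mb before P2rx7 on the same chromosome. It was at 0.591, 0.585 and 0.448 FPKM in knockouts A, B and C and at 0.632, 0.657 and 0.680 FPKM in WT 1, 2 and 3. The groups did not overlap, but knockouts A and B were close to WT 1. The log2 fold change was -0.27 ± 0.15 (SE; 95% interval -0.60 to 0.06; adjusted p = 0.391, edgeR). Of its counted exons, 15.7% is shared with Bmp2k on the other strand, which had 1589 to 2212 counts per library against 68 to 119 for Paqr3. The use of strand in counting is not given in the sources used here, so the value of Paqr3 is uncertain.

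Of the 7 tested members 1, Paqr9, was called and lower in knockouts, against 0.103% of all 15478 tested genes called in either direction, 0.0452% called lower and 0.0581% called higher. As this comparison led to the choice of the family, nothing is read from that count. Without overlap, Adipor2 was higher and Paqr3 and Paqr9 were lower, against 11.5% of tested genes higher and 10.4% lower. Of the 7 members 4 had a positive log2 fold change, against 51.2% of all tested genes, and their median was 0.00, as was that of all tested genes.

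**Figure D5:**
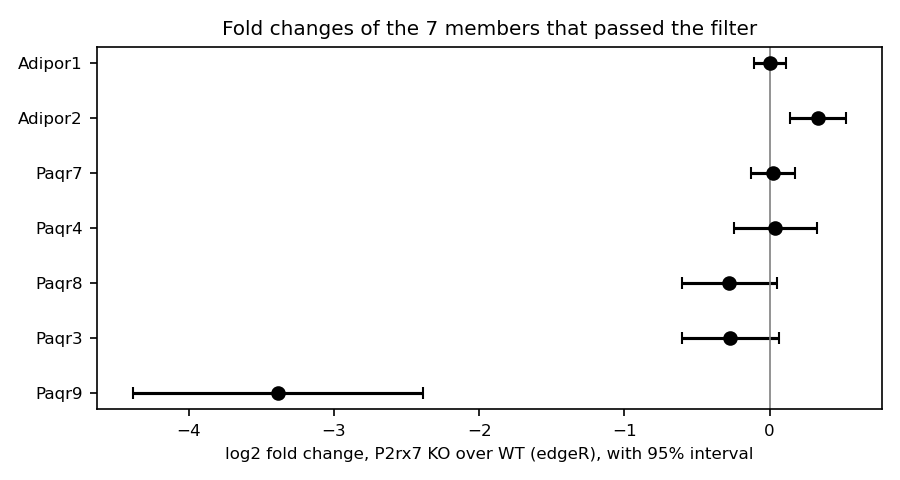
Log2 fold change of knockouts over wild types for the 7 members that passed the filter, in order of level from the top, with 95% intervals from edgeR. The interval of Adipor1 runs from -0.10 to 0.11, that of Adipor2 lies above 0 and that of Paqr9 runs from -4.39 to -2.39.

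The other genes of these pathways, in lists that leave out the 9 members, were not called in edgeR. Of the genes in the lists below that passed the filter, edgeR without the filter called 1 ligand or binding protein gene, 1 signalling gene and 2 ceramide genes. This stands against 3.2% of all genes in that fit, and listed genes that did not pass the filter were not counted. The counts at an unadjusted p below 0.05 given for these lists stand against 16.6% of all tested genes. Of 8 tested adiponectin-type ligands and binding proteins, 0 passed in either direction (3 at an unadjusted p below 0.05, 0 called by DESeq2 and by limma voom), with a median log2 fold change of 0.20. Adiponectin itself (Adipoq) had counts of 2481, 1886 and 1638 in knockouts A, B and C and 880, 272 and 1169 in WT 1, 2 and 3. The groups did not overlap, WT 2 was far below the other wild types, and the log2 fold change was 1.47 ± 0.42 (SE; adjusted p = 0.188, edgeR). C1qtnf6, a secreted relative of adiponectin, was at 30.8 ± 1.28 FPKM in knockout libraries and 26.6 ± 3.75 FPKM in wild-type libraries; errors here and below are SD, n = 3 each. Of 16 tested genes of adiponectin receptor signalling, 0 passed (4 at an unadjusted p below 0.05, 0 by DESeq2 and voom), with a median of 0.07. The AMPK-activating kinase gene Stk11 was at 20.8 ± 1.14 FPKM in knockout libraries and 21.6 ± 0.574 FPKM in wild-type libraries.

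Enzymes and receptors of ceramide and sphingosine, the lipids that the ceramidase activity of these receptors acts on, were likewise not called (0 of 21 tested, with 5 at an unadjusted p below 0.05 and median 0.05), while DESeq2 called S1pr1, a sphingosine-1-phosphate receptor, and voom 0. The acid ceramidase gene Asah1 was at 137.2 ± 1.30 FPKM in knockout libraries and 137.0 ± 1.72 FPKM in wild-type libraries, and the desaturase gene Degs1 was at 87.4 ± 1.04 FPKM in knockout libraries and 88.0 ± 5.12 FPKM in wild-type libraries. Of 4 tested progestin receptors outside the family 0 passed (0 at an unadjusted p below 0.05 and 0 by DESeq2 and voom, median 0.03). The nuclear receptor gene Pgr had counts of 3, 10 and 8 in knockouts A, B and C and 1, 1 and 7 in WT 1, 2 and 3. The membrane-associated progesterone-binding protein gene Pgrmc1 was at 83.8 ± 2.01 FPKM in knockout libraries and 80.8 ± 1.14 FPKM in wild-type libraries. Its relative Nenf was at 66.9 ± 9.49 FPKM in knockout libraries and 61.2 ± 6.08 FPKM in wild-type libraries. Of 18 tested genes of the Raf and ERK cascade 0 passed (4 at an unadjusted p below 0.05, 0 by DESeq2 and voom, median -0.02). The kinase gene Mapk3 was at 98.1 ± 3.52 FPKM in knockout libraries and 98.4 ± 1.76 FPKM in wild-type libraries. Dusp6, a phosphatase induced by ERK, was at 68.5 ± 2.58 FPKM in knockout libraries and 68.7 ± 2.73 FPKM in wild-type libraries. Mmd, a family relative outside the 9 members, was at 17.1 ± 0.829 FPKM in knockout libraries and 16.6 ± 1.87 FPKM in wild-type libraries, and Mmd2 had at most 1 count in any library.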

How the data were processed

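Per the labels' protocols, RNA from flushed femoral marrow was purified with a Qiagen kit and 1.3 µg went into each SMARTer library. The submitters' processing notes name the builds GRCm38 and mm10, which are the same assembly. Which aligner, counter and annotation were used is not given in the sources used here. Raw counts and FPKM per gene symbol were deposited by the authors. Each deposited FPKM value above 0 equalled the count over exon length and 1 library size per sample (relative tolerance 1e-06). That size differed from the count total, being 20068330 against 19663655 in knockout C and 23146950 against 23575652 in WT 2. How it was set is not given in the sources used here. No library lacked a label, and 0 per-sample columns were left unmatched.

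The members, gene lists and tests were chosen with earlier results of these data known. Counts were tested with edgeR 4.0.16 in R 4.3.3 (filterByExpr, TMM, glmQLFit, glmQLFTest, two-sided), which tested 15478 genes, with Benjamini-Hochberg adjustment over all of them and a threshold of 0.05. Standard errors and intervals come from that test, and on simulated data with known fold changes its share of false calls was above the threshold of 0.05. CPM values are TMM-scaled. Alternatives used other scalings, filters, variance models, limma 3.58.1, DESeq2 1.42.0, each library left out, and the split of libraries by growth hormone counts. Named genes were the members, P2rx7, genes of each pathway list past the threshold or else its 2 highest in FPKM, the 5 genes most like Paqr9, and overlapping or adjacent genes. A gene that this rule names in the receptor signalling list is not reported here. Other genes, among them Pgr, Stmn2, Nefm and marker genes, were picked after their values were seen. Gene spans matched GENCODE M21 for all 9 members, and promoter windows are from RefSeq.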

Additional observations from a re-analysis of the deposited data

How the results depend on the processing

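The log2 fold change of Paqr9 was negative under each of 17 alternatives and passed the threshold in 7 of them (DESeq2, no filter, another filter, both other scalings, the robust variance model and without WT 3). These fits reuse the libraries whose Paqr9 counts led to the choice of the family. Its sign was thus set in advance, and nothing is read from these numbers of fits. It was -0.13 on log2(FPKM + 1) and -0.92 on log2(FPKM + 0.1), where the pseudocount compares with levels of 0.00629 to 0.139 FPKM, and -3.57 to -3.14 elsewhere. Members called were 2 (Adipor2 and Paqr9) with no filter on low counts and by DESeq2. They were 0 by limma voom, by limma on log2(FPKM + 1) and log2(FPKM + 0.1), and with the growth hormone split as a term. Each fit that called 0 there had 2 members at an unadjusted p below 0.05. All genes at that p were, in the same order, 2561, 2484, 2460 and 894 of 15478 tested. In the 4 libraries with growth hormone counts, knockout A alone stands for the knockouts. The log2 fold change there was -3.265 for Paqr9 and 0.364 for Adipor2. Leaving out 1 library gave 0 to 1 members called, the 1 being without WT 3. The log2 fold change of Adipor2 was 0.27 to 0.40 throughout.

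Genes called by edgeR were 16, against 970 with no filter, 496 by DESeq2, 6 by voom, 10 and 2 by limma on log2(FPKM + 1) and log2(FPKM + 0.1), and 0 in the 4 libraries and with the split as a term (668 and 894 at an unadjusted p below 0.05). Without 1 library the count was 0 (without knockout B or C, with 1468 and 1772 at an unadjusted p below 0.05) to 172 (without WT 3). It was 5 without WT 1, 45 without WT 2 and 8 without knockout A. P2rx7 had a log2 fold change of -0.64 in the 4 libraries and -0.64 with the split as a term, where it lost its call (adjusted p = 0.516 and 0.112, edgeR), and -0.69 to -0.65 without 1 library, losing it without knockout B or C (adjusted p = 0.0763 and 0.0973, edgeR).

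Signs turned only in members near 0. Adipor1 was -0.0020 with DESeq2 size factors, -0.0019 by DESeq2, -0.0044 with no filter, -0.00049 in the 4 libraries, -0.0044 on log2(FPKM + 1) and -0.0044 on log2(FPKM + 0.1), and -0.0100 to 0.0141 without 1 library. Without 1 library Paqr4 ran from -0.062 to 0.168 and Paqr7 from -0.019 to 0.088. The cause of these changes was not tested. Paqr5 and Paqr6 were too shallow for a fold change. No paired analysis was possible because wild types are numbered and knockouts are lettered.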
